A study of Homo sapiens with 14 samples.

Results

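The J-domain genes DNAJB1, DNAJB6, DNAJA1 and DNAJB4 were followed through peaks of the heat shock factors HSF1 and HSF2 in K562 cells, a human erythroleukemia line. Members were the deposited peaks of 12 lists that overlapped by at least 1 bp the hg19 window of a gene. The windows were chr19:14620000-14645000 for DNAJB1, chr7:157123000-157215000 for DNAJB6, chr9:33020000-33044000 for DNAJA1 and chr1:78439000-78489000 for DNAJB4. Together they span 191 kb and held 60 of the 117699 deposited peaks, 43 of them in HSF lists and 17 in lists of non-specific antibody (IgG).

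J-domain proteins are co-chaperones. Their J domain binds HSP70 and stimulates its ATPase, and the rest of the protein brings in the client. DNAJA1 is a class A member of the cytosol and nucleus that works with constitutive HSP70, and DNAJB1 (Hsp40) is the class B member best known as a heat-inducible partner of HSP70 in refolding and disaggregation. DNAJB4 is a close relative of DNAJB1, and DNAJB6 is a class B member known for holding back aggregation of polyglutamine proteins. HSF1 drives most of the transcription of chaperone genes under heat. HSF2, from the same family, binds the same heat shock element, which consists of alternating units of GAA and TTC spaced by 2 bases.

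Chromatin immunoprecipitation and sequencing was done with antibodies to HSF1 and HSF2 and with IgG in 4 conditions, which were heat-treated mitotic, heat-treated cycling, non-treated mitotic and non-treated cycling cells. Heat was 30 min at 42 °C, and K562 cells were otherwise cultured at 37 °C. Mitotic cells had been arrested in mitosis and cycling cells were unsynchronised. Each of the 12 groups is 1 library of 10 pooled immunoprecipitations, with 2 further input libraries, 1 for each cell state and both labelled as heat-treated, as the callers' control. With 1 library per group no condition was tested, and each ratio below compares 2 libraries. Kept tags, the tags left after the cap on duplicates, were fewest in IgG of non-treated mitotic cells (2066373) and most numerous in HSF2 of non-treated cycling cells (28676943). The HSF1 libraries of mitotic cells were shallow, with 7385467 kept tags with heat and 6164898 without. They and non-treated mitotic IgG kept 1 tag per position, and the other 9 libraries kept 2. Values are tags in the deposited peak per 1000000 kept tags (CPM) with exact 95% Poisson intervals, which cover counting error only. A fold is the authors' deposited enrichment over input at the summit, and it is used within a list. It is not adjusted for depth: at DNAJA1, peaks of 17 tags had a fold of 3.87 in libraries of 7385467, 28299989 and 14782391 kept tags. A list holds only peaks past the caller's threshold, so a missing peak is not a level of 0.

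The promoter bases that RefSeq gives for the 4 genes are shown first, because all 4 carry letters of the heat shock element. They are in GRCh38.p14 and the peaks are in hg19, so whether a peak covers these bases was not determined. Each window runs from 250 bases before to 50 bases after a transcript start, 5′ to 3′ on the gene's strand. Capitals mark the fixed letters of each match, including those of 3 units with 1 letter changed. Of several starts, the window with the most matches is shown (the second of 3 for DNAJB1, the second of 2 for DNAJB4).
DNAJB1, chr19:14518348-14518647, minus strand: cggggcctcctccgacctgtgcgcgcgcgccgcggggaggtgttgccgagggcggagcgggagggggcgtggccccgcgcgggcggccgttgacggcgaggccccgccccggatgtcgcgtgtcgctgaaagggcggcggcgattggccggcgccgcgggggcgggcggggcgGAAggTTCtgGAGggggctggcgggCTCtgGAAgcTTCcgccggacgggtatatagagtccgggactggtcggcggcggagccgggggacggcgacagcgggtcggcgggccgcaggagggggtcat
DNAJB6, chr7:157336754-157337053, plus strand: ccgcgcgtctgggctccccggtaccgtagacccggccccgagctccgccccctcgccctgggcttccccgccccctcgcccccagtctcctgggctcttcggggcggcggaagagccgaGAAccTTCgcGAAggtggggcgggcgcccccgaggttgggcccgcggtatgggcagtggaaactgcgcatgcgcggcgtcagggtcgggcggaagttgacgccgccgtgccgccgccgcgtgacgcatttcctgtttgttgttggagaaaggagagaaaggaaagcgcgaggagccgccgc
DNAJA1, chr9:33025023-33025322, plus strand: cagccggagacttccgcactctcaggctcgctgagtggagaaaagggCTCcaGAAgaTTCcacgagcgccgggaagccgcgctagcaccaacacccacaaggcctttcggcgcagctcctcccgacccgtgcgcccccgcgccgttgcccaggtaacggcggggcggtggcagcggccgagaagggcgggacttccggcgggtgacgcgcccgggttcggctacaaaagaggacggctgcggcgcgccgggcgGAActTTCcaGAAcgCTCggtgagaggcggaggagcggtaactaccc
DNAJB4, chr1:78004689-78004988, plus strand: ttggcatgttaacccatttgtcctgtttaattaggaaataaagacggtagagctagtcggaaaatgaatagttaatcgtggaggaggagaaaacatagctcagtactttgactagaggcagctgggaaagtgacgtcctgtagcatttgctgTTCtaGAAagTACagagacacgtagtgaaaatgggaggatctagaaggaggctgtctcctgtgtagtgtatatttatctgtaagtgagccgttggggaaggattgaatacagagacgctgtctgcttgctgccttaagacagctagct

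DNAJB6 and DNAJA1 each held 3 exact units in a row (GAANNTTCNNGAA). Counted from the transcript start, the DNAJB6 match ran from -131 to -119, and the DNAJA1 match from 4 to 16, just inside the transcript. DNAJA1 had a further match of 2 exact units from -198 to -191. DNAJB1 held 2 exact units (GAANNTTC) from -77 to -70 and again from -47 to -40, and DNAJB4 held 2 in the order TTCNNGAA from -98 to -91. The remaining starts gave 1 match of 2 units for the third DNAJB1 start and none for the first DNAJB1 and first DNAJB4 start. In all, 5 of the 7 member windows held 2 or more exact units and 2 held 3. Over all 35116 RefSeq promoter windows the shares were 13.5% and 0.49%. With 1 of the 9 fixed letters allowed to differ, 5 of 7 member windows and 6.24% of all windows held 3 units. Letters were searched on both strands, and the 3-unit matches contain the 2-unit ones. Among 44 other J-domain genes from a list of the family, 39 had a promoter window (50 windows). Of these windows 4 (8%) held 2 exact units, those of DNAJA4, DNAJB7, DNAJC15 and DNAJC6, and 0 held 3. A match of letters is a description and not a binding site.

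**Figure D1:**
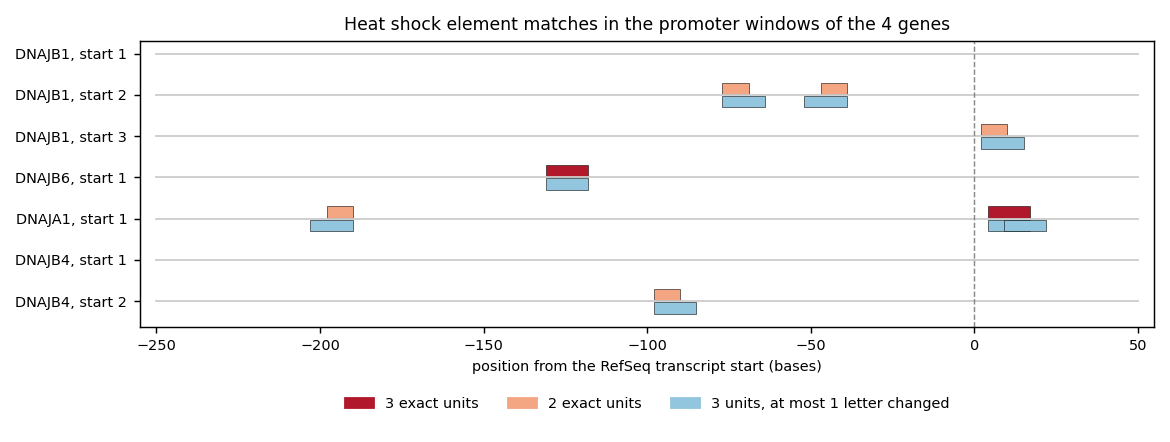
Positions of heat shock element letters (x axis, bases from the RefSeq transcript start) in the 7 promoter windows of the 4 genes (rows). Bars above a row are exact matches of 2 or 3 units and bars below it are 3 units with at most 1 letter changed; DNAJB6 and DNAJA1 have 3 exact units, and the first starts of DNAJB1 and DNAJB4 have no match.

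In heat-treated cycling cells all 4 genes had an HSF1 peak and an HSF2 peak at the same place. For each gene the leading site is the one with the highest HSF1 CPM in these cells. At the 4 leading sites HSF2 peaks had summits 20 to 103 bp from the HSF1 summits. Across the 10 HSF peaks of the other heat-treated lists at these sites, the median distance was 37.5 bp. In heat-treated mitotic cells 3 of the 4 leading sites kept a peak of each factor, and DNAJB4 had none. For mitotic HSF2 an FDR of at most 5% removes the DNAJB1 peak (deposited FDR 5.96%). At a fold of at least 5 only the DNAJB6 peak of mitotic HSF2 was left. Without heat no HSF1 list had a peak at any leading site. HSF2 had one at DNAJA1 and DNAJB6 in mitotic cells and at DNAJA1 in cycling cells. The DNAJB6 one was as small as any peak of its list (12 tags, fold 1.99). IgG had no peak in the DNAJB1, DNAJA1 and DNAJB4 windows in any condition. The non-treated mitotic IgG list says little on this, since it was the shallowest and its smallest peak had 2.90 CPM.

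**Figure D2:**
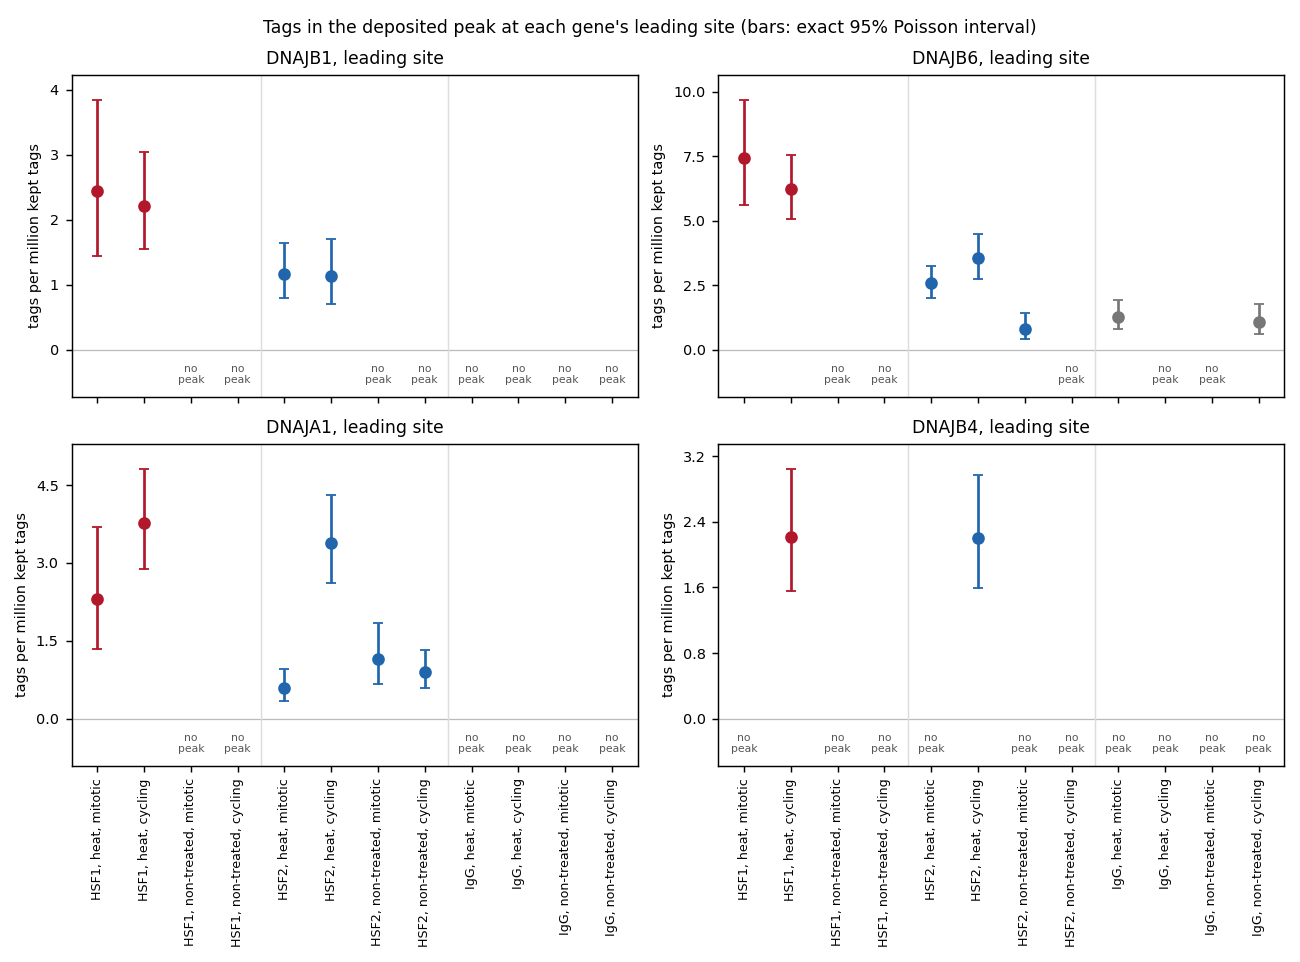
CPM (y axis) in the deposited peak at the leading site of each gene, for the 12 libraries (x axis, HSF1, HSF2 and IgG from left to right). Points are single libraries, bars are exact 95% Poisson intervals and "no peak" marks a list without a peak there; only DNAJA1 has an HSF2 peak in all 4 conditions, and only DNAJB6 has IgG peaks.

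DNAJA1, the class A co-chaperone, was the gene with the most HSF2 lists. Its only site, on chromosome 9 at 33024559 to 33025661, had an HSF2 peak in all 4 conditions and an HSF1 peak in both heat-treated libraries. HSF1 had 17 tags in heat-treated mitotic cells (2.30 CPM, 1.34 to 3.69) and 63 tags in heat-treated cycling cells (3.76 CPM, 2.89 to 4.82). HSF2 had 17 tags in heat-treated mitotic cells (0.601 CPM, 0.350 to 0.962), 66 in heat-treated cycling cells (3.39 CPM, 2.62 to 4.31), 17 in non-treated mitotic cells (1.15 CPM, 0.670 to 1.84) and 26 in non-treated cycling cells (0.907 CPM, 0.592 to 1.33). The heat-treated cycling HSF2 peak stood above the other 3, whose intervals overlap one another. HSF2 summits without heat lay at -20 bp (mitotic) and 171 bp (cycling) from the heat-treated cycling HSF1 summit.

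The HSF2 peak of DNAJA1 in non-treated cycling cells had a fold of 5.04 and a deposited FDR of 26.2%, and an FDR of at most 5% removes it. In non-treated mitotic cells the fold was 3.87 and the FDR 2.38%. The heat-treated mitotic HSF2 peak was close to the smallest that its list holds, with 17 tags where the lowest peak of the list had 16.

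DNAJB1, the heat-inducible Hsp40 gene, had 4 sites, of which 3 were seen in heat-treated cycling cells. At the leading site, on chromosome 19 at 14628662 to 14629787, HSF1 had 18 tags in heat-treated mitotic cells (2.44 CPM, 1.44 to 3.85) and 37 in heat-treated cycling cells (2.21 CPM, 1.56 to 3.05). HSF2 had 33 tags in heat-treated mitotic cells (1.17 CPM, 0.803 to 1.64) and 22 in heat-treated cycling cells (1.13 CPM, 0.708 to 1.71). The mitotic HSF2 peak had a fold of 4.58 and a deposited FDR of 5.96%. Within each factor the mitotic and cycling intervals overlap almost fully. The other 8 lists held no peak there.

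A second DNAJB1 site lay 9.20 kb to the higher-coordinate side, on chromosome 19 at 14637895 to 14639489, and was found with both factors in heat-treated cycling cells alone. HSF1 had 36 tags there (2.15 CPM, 1.51 to 2.98), nearly the level of the leading site, and HSF2 had 54 tags (2.77 CPM, 2.08 to 3.62), with summits 17 bp apart. The third, on chromosome 19 at 14623782 to 14624782 at -4.93 kb from the leading summit,, was called with HSF2 alone (35 tags, 1.80 CPM, 1.25 to 2.50, fold 6.67). Over the whole HSF2 list of these cells, 90.6% of peaks with a fold of at least 5 overlapped an HSF1 peak, and among the members 5 of 6 did. In non-treated mitotic cells HSF2 had 1 weak peak in the window, 1.59 kb from the leading summit (12 tags, fold 2.5). In the RefSeq gene table (GRCh38.p14) GIPC1 and TECR are the protein-coding neighbours of DNAJB1. Which gene the second and the third site lie in was not determined, because no hg19 annotation was used here.

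DNAJB4, the relative of DNAJB1, had a single site with a peak in 2 of the 12 lists. On chromosome 1 at 78470058 to 78470865, HSF1 had 37 tags in heat-treated cycling cells (2.21 CPM, 1.56 to 3.05, fold 8.99). HSF2 had 43 tags there in the same cells (2.21 CPM, 1.60 to 2.97, fold 8.57), with a summit 24 bp away. No other peak of any list fell in the 50 kb window. The smallest peaks of the heat-treated mitotic lists had 9 tags (1.22 CPM) for HSF1 and 16 tags (0.565 CPM) for HSF2. These are minima of whole lists, and what size of peak could be called at DNAJB4 was not tested.

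DNAJB6, the gene of the aggregation suppressor, had the strongest HSF1 peak of the 4. At the leading site, HSF1 had 55 tags in heat-treated mitotic cells (7.45 CPM, 5.61 to 9.69, chromosome 7 at 157128950 to 157129980) and 104 in heat-treated cycling cells (6.21 CPM, 5.08 to 7.53, at 157128967 to 157130137). HSF2 had 73 tags in heat-treated mitotic cells (2.58 CPM, 2.02 to 3.24), 69 in heat-treated cycling cells (3.54 CPM, 2.76 to 4.48) and 12 in non-treated mitotic cells (0.812 CPM, 0.419 to 1.42). By CPM every HSF peak of heat-treated cells at this site stood above the non-treated mitotic HSF2 peak, whose summit lay at -253 bp from the HSF1 summit. That non-treated peak had a fold of 1.99, rank 16648 of 19866 in its list, and no peak of the list had fewer tags. Per kb of peak width, heat-treated mitotic HSF2 had 1.56 CPM (1.22 to 1.96) and non-treated mitotic HSF2 1.41 (0.727 to 2.46), intervals that overlap. HSF summits of the heat-treated lists lay within 30 bp of one another.

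IgG was also found at the DNAJB6 leading site. In heat-treated mitotic cells IgG had 23 tags (1.28 CPM, 0.811 to 1.92, fold 2.81), with a summit 154 bp from the heat-treated cycling HSF1 summit. In non-treated cycling cells it had 16 tags (1.08 CPM, 0.620 to 1.76) in a peak whose summit lay at -800 bp. By CPM both IgG peaks were above the non-treated mitotic HSF2 peak (0.812 CPM, 0.419 to 1.42), with intervals that overlap. Against IgG of the same cells, heat-treated mitotic HSF1 was 5.82-fold higher (3.52 to 9.93) and heat-treated mitotic HSF2 2.02-fold higher (1.25 to 3.38). Per kb of peak width the HSF2 ratio was 1.08, because the HSF2 peak was 1657 bp wide and the IgG peak 890 bp. These ratios carry exact conditional 95% intervals for counting error.

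The rest of the DNAJB6 window, which spans 92 kb, held mostly peaks of mitotic lists and of non-treated cycling IgG with a fold under 5. These are the lists without bwa in their alignment names, so naming and cell state cannot be told apart here. Away from the leading site non-treated cycling IgG had 4 peaks. Heat-treated cycling IgG, with bwa in its name, had 0, and so did non-treated mitotic IgG. Of its 23 sites, 13 had a peak in 1 list only and 13 had an IgG peak in at least 1 condition. Away from the leading site, heat-treated mitotic IgG had 11 peaks, with folds of 2.16 to 5.83 and up to 3.73 CPM, and 9 of them lay more than 45 kb from the leading summit. The highest of them, at 157198556 to 157200473 with 67 tags, had more IgG than the leading site itself. Non-treated mitotic HSF2 had 11 such peaks with folds of 1.84 to 3.44, and 7 lay beyond 45 kb. Heat-treated mitotic HSF2 had 5, with folds of 3.18 to 5.41, and 3 of these overlapped an IgG peak of the same cells. Heat-treated cycling HSF2 had none. HSF1 peaks away from the leading site numbered 2 in heat-treated mitotic, 1 in heat-treated cycling, 1 in non-treated mitotic and 2 in non-treated cycling cells, with folds no higher than 2.14. Peaks stood at 13 per 100 kb in this window in non-treated mitotic HSF2 and in heat-treated mitotic IgG, against 0.736 and 1.53 per 100 kb over the genome. Within 10000 bp outside the windows, 7 more peaks lay beside DNAJB6 (folds 2.12 to 3.78, the nearest 1341 bp away) and 0 beside the other 3 genes.

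**Figure D3:**
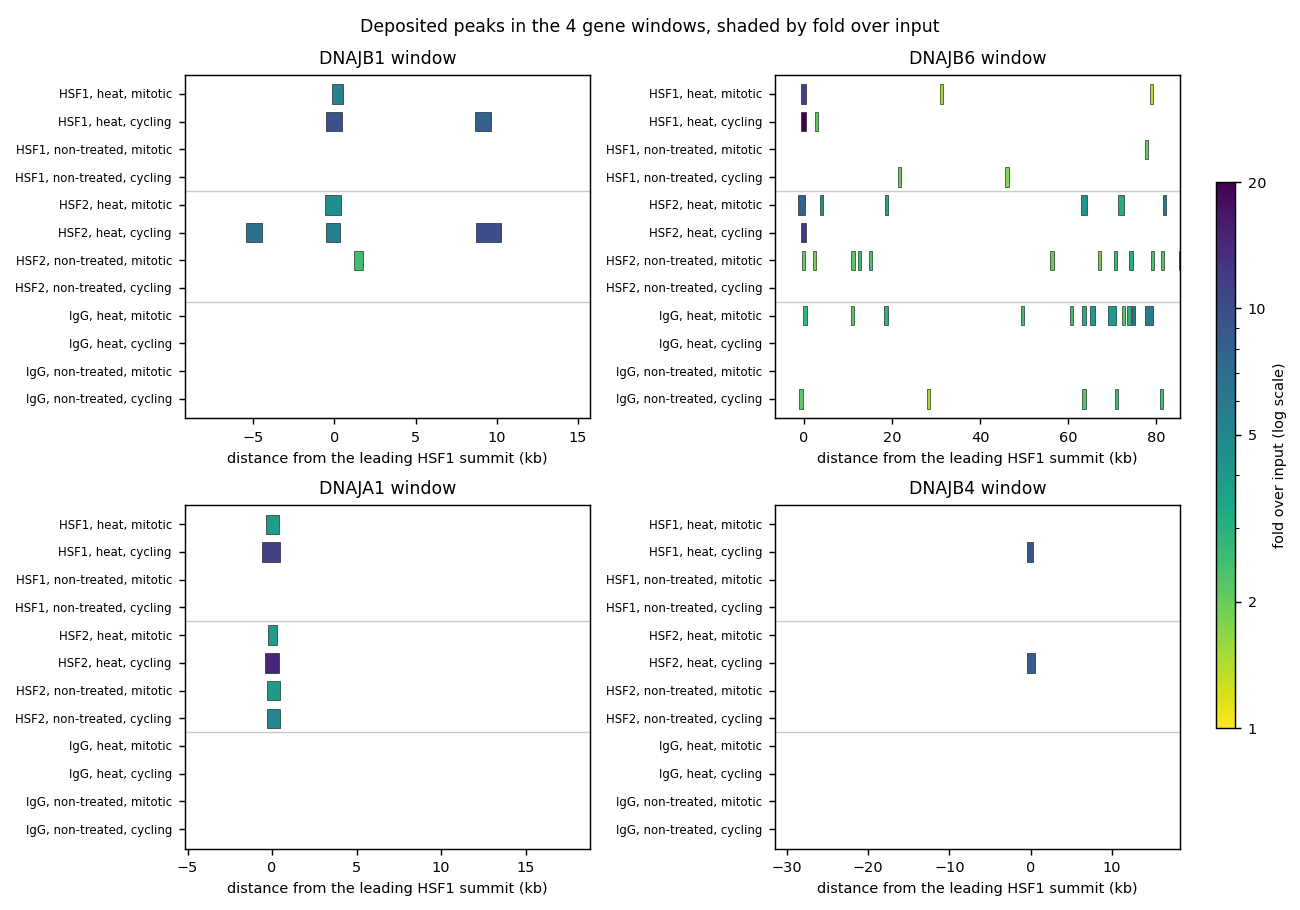
Deposited peaks (bars) in each gene window by list (rows, HSF1, HSF2 and IgG from top to bottom), with distance from the leading HSF1 summit in kb on the x axis and fold over input as shading on a log scale. Very narrow bars are drawn at a minimum width. DNAJA1 and DNAJB4 have 1 site each. Further peaks spread over the 92 kb DNAJB6 window in mitotic HSF2, heat-treated mitotic IgG and non-treated cycling IgG lists.

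Between genes, levels were compared as CPM per kb of peak width within a library. In heat-treated mitotic HSF1, DNAJB6 had 7.22 CPM per kb (5.44 to 9.40), DNAJB1 3.38 (2.00 to 5.34) and DNAJA1 2.93 (1.71 to 4.69). The interval of DNAJB6 lies above the other two. In heat-treated cycling HSF1, DNAJB6 had 5.31 CPM per kb (4.34 to 6.43), DNAJA1 3.41 (2.62 to 4.37), DNAJB4 2.74 (1.93 to 3.77) and the DNAJB1 leading site 2.19 (1.54 to 3.01). Each interval there overlaps that of its neighbour in the order, and the interval of DNAJB6 lies above those of DNAJB4 and DNAJB1. In heat-treated mitotic HSF2 the level was 1.56 CPM per kb at DNAJB6, 1.20 at DNAJB1 and 1.14 at DNAJA1, with intervals that overlap. In heat-treated cycling HSF2 the order was DNAJA1 with 4.10 CPM per kb (3.17 to 5.21), DNAJB6 with 3.44 (2.67 to 4.35), DNAJB4 with 2.31 (1.67 to 3.11) and the DNAJB1 leading site with 1.31 (0.818 to 1.98). Neighbours again overlap, while DNAJA1 lies above DNAJB4 and DNAJB1.

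Ranked by fold within their lists, the DNAJB6 peaks came highest in 3 of the 4 heat-treated HSF lists. DNAJB6 ranked 5 of 4982 in heat-treated mitotic HSF1 (fold 11.2) and 39 of 6447 in heat-treated cycling HSF1 (fold 20.1). It ranked 28 of 8270 in heat-treated mitotic HSF2 (fold 7.87) and 88 of 4315 in heat-treated cycling HSF2 (fold 12.02). DNAJA1 ranked 71 in heat-treated mitotic HSF1, 199 in heat-treated cycling HSF1, 3850 in heat-treated mitotic HSF2 and 49 in heat-treated cycling HSF2 (fold 14.7). The DNAJB1 leading site ranked 30, 313, 1217 and 668 in the same 4 lists, and DNAJB4 ranked 364 and 234 in the cycling HSF1 and HSF2 lists. In cycling HSF2 the DNAJB1 leading site was the lowest of the 3 DNAJB1 peaks by fold. The second site ranked 167 there (fold 9.70), ahead of DNAJB4, and the third ranked 430 (fold 6.67). By CPM the leading peaks all ranked lower in their lists than by fold. In heat-treated mitotic HSF1, DNAJB6 ranked 347 by CPM, DNAJB1 1260 and DNAJA1 1335. In heat-treated cycling HSF1 DNAJB6 ranked 239, DNAJA1 552, and DNAJB1 and DNAJB4 1185 each. In heat-treated mitotic HSF2 DNAJB6 ranked 622, DNAJB1 1788 and DNAJA1 6913. In heat-treated cycling HSF2 DNAJB6 ranked 387, DNAJA1 415, DNAJB4 765 and DNAJB1 1908. Ranks are read within a list, since the lists differ in length and depth: the DNAJA1 fold of 3.87 is rank 71 in mitotic HSF1 and rank 3850 in mitotic HSF2.

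**Figure D4:**
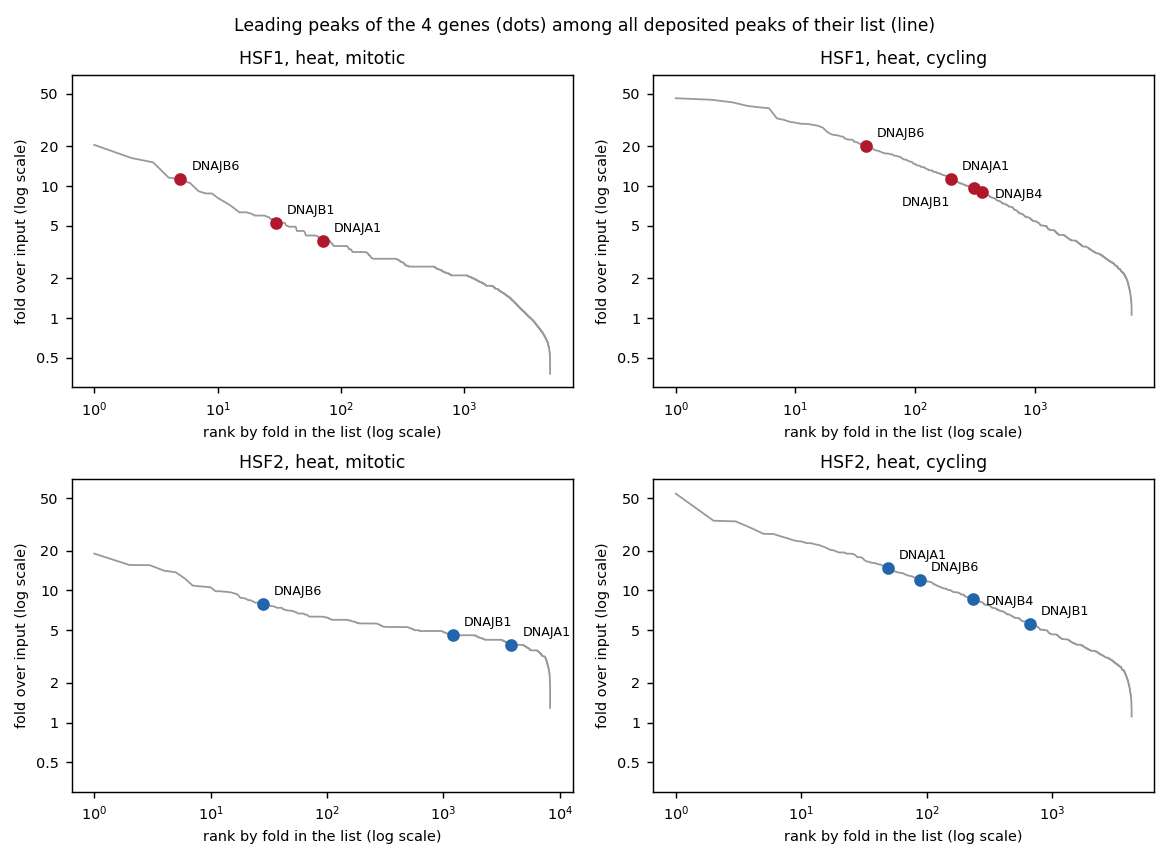
Fold over input (y axis, log scale) against rank by fold (x axis, log scale) for all deposited peaks of the 4 heat-treated HSF lists (lines), with the leading peaks of the genes as dots. Within their lists, DNAJB6 is the highest of the genes in mitotic HSF1 (rank 5), cycling HSF1 (rank 39) and mitotic HSF2 (rank 28), and DNAJA1 is the highest in cycling HSF2 (rank 49); ranks do not compare between lists.

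Setting heat-treated beside non-treated cells addresses which sites carry the factors only once cells are heated. In cycling cells, none of the 5 HSF1 member peaks with a fold of at least 5 overlapped an HSF1 peak of non-treated cells, against 4.64% of all 1249 such HSF1 peaks. For HSF2, 1 of 6 did (DNAJA1), against 6.6% of 909. With so few member peaks, these counts cannot be set apart from the background. With non-treated mitotic lists as partner, 0 of the 5 HSF1 peaks and 2 of the 6 HSF2 peaks (DNAJB6 and DNAJA1) had a counterpart, against 3.2% and 12.4% over the lists. The smallest HSF1 peak had 12 tags (0.831 CPM) in the non-treated cycling list and 8 tags (1.30 CPM) in the non-treated mitotic list. These are minima of whole lists and lie below the 4 heat-treated cycling leading peaks. What size of peak could be called at these sites was not tested. Only HSF2 gave a ratio. At DNAJA1, heat-treated cycling cells had 3.74 times the CPM of non-treated cycling cells (2.34 to 6.13), and the median was 2.29 over the 60 HSF2 peaks with a partner (10th to 90th percentile 1.34 to 5.28), which were selected in the heat-treated list and so favour heat. In mitotic cells the DNAJA1 ratio was 0.522 (0.251 to 1.09), an interval that includes 1, and by the deposited fold it was 1.00. At DNAJB6 in mitotic cells the HSF2 ratio was 3.18 (1.71 to 6.43). The non-treated peak of this ratio, also the DNAJB6 counterpart counted above, had 12 tags, the lowest of its list. Per kb of peak width the DNAJB6 ratio was 1.11, since the heat-treated peak was 1657 bp wide and the non-treated one 577 bp.

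Setting mitotic beside cycling cells after heat addresses which sites hold the factors on condensed chromosomes. Alignment names differ between the mitotic and cycling HSF lists, so naming and cell state cannot be told apart here, and the mitotic HSF1 library kept 1 tag per position against 2 in the cycling one. Of the 5 HSF1 member peaks with a fold of at least 5 in cycling cells, 3 overlapped a mitotic HSF1 peak (DNAJB1 leading site, DNAJB6 and DNAJA1), against 24.4% of all such peaks. Of the 6 HSF2 peaks, 3 did at the same sites, against 21.6%. So few member peaks do not set these counts apart from the background. The background is also not matched for strength. The 3 HSF1 peaks ranked 39 (DNAJB6), 199 (DNAJA1) and 313 (DNAJB1) by fold, among 1249 peaks with a fold of at least 5. For HSF1 the mitotic to cycling ratio of CPM was 1.10 at DNAJB1 (0.591 to 1.99), 1.20 at DNAJB6 (0.848 to 1.68) and 0.611 at DNAJA1 (0.335 to 1.06). All 3 intervals include 1, and the direction at DNAJB1 and DNAJB6 depends on the scaling. Scaled by the total tags of the headers, the HSF1 ratio was 0.784 at DNAJB1, 0.852 at DNAJB6 and 0.435 at DNAJA1. The cycling HSF1 library kept 100% of its total tags and the mitotic one 71.1%, so this scaling lowers the mitotic side alone. Whether duplicates had been removed from the cycling library before its total was counted was not determined. By the deposited fold, which is not adjusted for depth, the HSF1 ratio was 0.548, 0.559 and 0.344 at the same genes. By the depth-scaled fold (fold times input over ChIP kept tags) it was 1.37, 1.39 and 0.859. Per kb of peak width it was 1.54, 1.36 and 0.859. The median CPM ratio over 305 peaks with a partner was 0.612 (10th to 90th percentile 0.341 to 1.25). For HSF2 the CPM ratio was 1.03 at DNAJB1 (0.584 to 1.86; 0.933 by total tags), 0.728 at DNAJB6 (0.517 to 1.03) and 0.177 at DNAJA1 (0.0975 to 0.306). DNAJA1 alone had an interval below 1. Per kb of peak width the HSF2 ratio at DNAJB6 was 0.453, since the mitotic peak was the wider one (1657 bp against 1031 bp). The median over 196 HSF2 peaks was 0.38 (10th to 90th percentile 0.191 to 1.00). These medians rest on peaks selected in the cycling lists, which favours cycling cells. Peaks of heat-treated mitotic IgG overlapped 1 of the 5 HSF1 member peaks of cycling cells (DNAJB6), against 16.5% of all such HSF1 peaks. Peaks of heat-treated cycling IgG overlapped 0 of these 5, against 2.88%.

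HSF1 and HSF2 were compared in the same cells. All 5 HSF1 member peaks with a fold of at least 5 in heat-treated cycling cells overlapped an HSF2 peak, against 78.6% of all such peaks. In heat-treated mitotic cells HSF1 exceeded HSF2 in CPM at each of the 3 sites. The ratio there was 2.09 at DNAJB1 (1.11 to 3.82), 2.89 at DNAJB6 (2.00 to 4.15) and 3.83 at DNAJA1 (1.84 to 7.99). The smallest peak of the mitotic HSF1 list had 1.22 CPM, while mitotic HSF2 had 1.17 CPM at DNAJB1 and 0.601 at DNAJA1. Any HSF1 peak held by the list at these 2 genes would therefore give a ratio above 1. The mitotic HSF1 library also kept 1 tag per position, against 2 in mitotic HSF2. Per kb of peak width the mitotic DNAJB6 ratio was 4.64. By the deposited fold, which is not scaled for depth, the mitotic ratios were 1.15 at DNAJB1, 1.43 at DNAJB6 and 1.00 at DNAJA1. By the depth-scaled fold they were 4.42, 5.47 and 3.83 at the same genes. In heat-treated cycling cells the CPM ratio was 1.96 at DNAJB1 (1.12 to 3.48) and 1.75 at DNAJB6 (1.28 to 2.41). The other two ratios included 1, with 1.11 at DNAJA1 (0.774 to 1.59) and 1.00 at DNAJB4 (0.627 to 1.59). At the second DNAJB1 site the ratio was 0.776 (0.494 to 1.20). Leading sites were chosen by HSF1 CPM in heat-treated cycling cells, which favours HSF1 in the cycling ratios; at DNAJB1 the choice rested on 37 HSF1 tags against 36 at the second site, where HSF2 had 54 tags against 22. Over 982 HSF1 peaks with an HSF2 partner the median was 1.38 (10th to 90th percentile 0.915 to 2.08), and these peaks were selected in the HSF1 list, which also favours HSF1. The efficiency of the antibodies was not measured, so these ratios compare libraries and not amounts of bound protein.

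**Figure D5:**
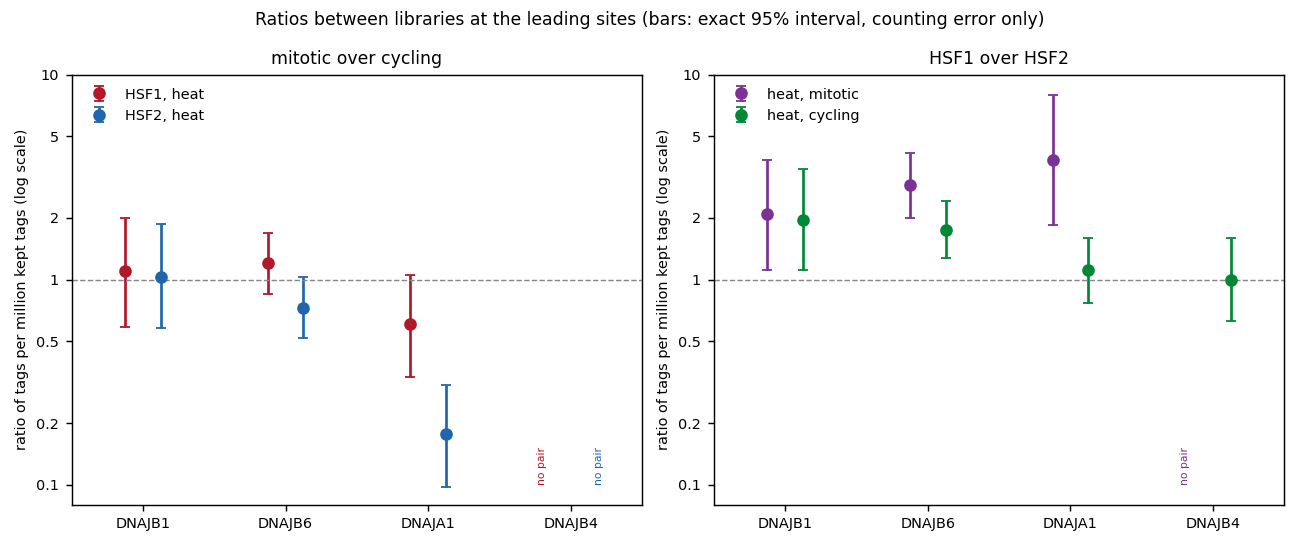
Ratios of CPM at the leading sites (y axis, log scale) for the 4 genes (x axis), mitotic over cycling with heat on the left panel and HSF1 over HSF2 with heat on the right. Points are ratios between 2 libraries, bars are exact 95% intervals for counting error and the dashed line is 1; HSF2 at DNAJA1 (0.177) is the only mitotic to cycling ratio with an interval below 1.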

How the data were processed

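The submitters' processing notes name Bowtie, hg19 and MACS 1.4. Per the file headers, MACS 1.4.1 called peaks in each library against input of its cell state, at a p cutoff of 1e-05 and with fragments of 200 bp. Of the cycling lists, 5 have bwa in the names of their alignments, contrary to the notes, and the other 7 lists do not. The authors deposited the tag count of each peak, a score of minus 10 times log10 of the p-value, a fold (ratio of ChIP to expected tags) and the FDR in percent. The 1 list with accession names for chromosomes was renamed.

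Counts were scaled to 1000000 kept tags from the headers, so they depend on the duplicate cap. Peaks of all lists were merged into sites at 1 bp of overlap, and intervals are exact Poisson or conditional binomial. With 1 library per group, nothing was tested. Named were all 4 genes, each with its leading site. Members, lists and the other J-domain genes were chosen with earlier results of these data known. The fold minimum of 5 for background shares, the 3 units with 1 changed letter and the ratio at the second DNAJB1 site were chosen after the members' values were seen. The steps were tested on simulated data. Scripts ran in Python 3.11.15 with pandas 2.3.3 and numpy 2.4.6, statistics in scipy 1.17.1 and plots in matplotlib 3.10.9. Promoter sequences are RefSeq's (GRCh38.p14), and all 4 genes matched by symbol.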

Additional observations from a re-analysis of the deposited data

Results flagged for a closer look

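Opposite directions of 1 contrast in 2 groups drew attention to 3 pairs of ratios, and none of these differences was tested. HSF2 at DNAJA1 was 0.522 times as high in heat-treated as in non-treated mitotic cells, and 3.74 times as high in heat-treated as in non-treated cycling cells. The mitotic heat-treated and non-treated peaks had 17 tags each, from 28299989 and 14782391 kept tags, and the same deposited fold, a ratio of 1.00.

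HSF2 at DNAJA1 was also 0.177 times as high in mitotic as in cycling cells with heat, and 1.27 times as high in mitotic as in cycling cells without heat, where the interval runs from 0.646 to 2.43. The ratio without heat was 1.01 by total tags, 1.29 per kb of peak width and 1.64 by the depth-scaled fold. Only by the deposited fold, which is not scaled for depth, was it below 1 (0.768). At DNAJB6 after heat the mitotic to cycling ratio was 1.20 for HSF1 and 0.728 for HSF2, and both intervals include 1. By total tags the ratios were 0.852 for HSF1 and 0.658 for HSF2, and by the deposited fold 0.559 and 0.655, so both factors were then lower in mitotic cells. By the depth-scaled fold the ratios were 1.39 for HSF1 and 0.496 for HSF2, and per kb of peak width 1.36 and 0.453. With these measures the directions stayed opposite, so the pattern depends on the scaling.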

How the results depend on the processing

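No paired analysis was possible because each group holds 1 library. Counts of genes with a peak depend on the minimum. With any deposited peak, heat-treated lists had 3 (mitotic HSF1), 4 (cycling HSF1), 3 (mitotic HSF2) and 4 (cycling HSF2) of 4 genes. At a fold of at least 10 these were 1, 2, 0 and 2. At a fold of at least 5, mitotic HSF2 had 1. It had 2 at a score of at least 100, without DNAJA1, and 2 at an FDR of at most 5%, without DNAJB1. With the fold scaled for depth (times input over ChIP kept tags) and a minimum of 20, mitotic HSF2 had 0 and cycling HSF2 had 2. Non-treated lists had 1 gene each for mitotic and cycling HSF1, 3 for mitotic HSF2 and 1 for cycling HSF2, and all had 0 at a fold of 10 or a depth-scaled fold of 20. At a fold of 5 both non-treated HSF1 lists and mitotic HSF2 had 0. A score of 100 left 0 in non-treated cycling HSF1 and HSF2, and an FDR of at most 5% left 0 in non-treated cycling HSF2. IgG had 1 gene in heat-treated mitotic and in non-treated cycling cells. Both were 0 at a fold of 10 or a depth-scaled fold of 20, and non-treated cycling IgG was 0 at a fold of 5 or a score of 100. Summits in the window, wider windows and removal of peaks that overlap IgG of the same cells moved no count by more than 1.5 times. Peaks elsewhere in the DNAJB6 window kept that gene in the heat-treated mitotic counts there. At the DNAJB6 leading site IgG had 2 lists, 1 with a summit within 250 bp and 0 at a fold of 5. DNAJA1 had 6 HSF lists, and 3 at a fold of 5.

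Of 76 alternative values of 19 ratios, 64 stayed within the counting interval and 12 did not. By the deposited fold, which is not scaled for depth, HSF1 mitotic over cycling was 0.548 at DNAJB1 and 0.559 at DNAJB6, and HSF1 over HSF2 was 1.43 at DNAJB6 and 1.00 at DNAJA1 in mitotic and 0.763 at DNAJA1 in cycling cells. By the depth-scaled fold, HSF1 over HSF2 in mitotic cells was 4.42 at DNAJB1 and 5.47 at DNAJB6, and HSF2 mitotic over cycling was 0.496 at DNAJB6. Per kb of width at DNAJB6, HSF2 mitotic over cycling was 0.453, HSF1 over HSF2 in mitotic cells 4.64, HSF2 over IgG 1.08 and heat-treated over non-treated mitotic HSF2 1.11. Widths account for the last values by construction, and the cause of the others was not tested. Scaling by total tags moved no ratio past its interval, but turned the HSF1 mitotic to cycling ratios from above to below 1 at DNAJB1 (0.784) and DNAJB6 (0.852), and that of HSF2 at DNAJB1 (0.933). The cycling HSF libraries kept 100% of their total tags, so in mitotic to cycling ratios this scaling lowers the mitotic side alone. Depth limits the non-treated mitotic HSF1 and IgG lists, whose smallest peaks had 1.30 and 2.90 CPM.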
